A study of Rattus norvegicus with 2 samples.

Results

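The cells described here are the Vcan- and Fn1-bearing monocytes of the rat zygomatic maxillary suture, where the zygoma meets the maxilla in the face. They were selected on measured values: a cell had to hold at least 10 UMIs (unique molecular identifiers, each standing for 1 captured transcript) of Vcan and Fn1 together. It also had to hold fewer than 10 UMIs of C1qa, C1qb and C1qc, and less than 1% of its UMIs each from the granule proteases Mpo, Elane, Prtn3 and Ctsg and from the collagens Col1a1 and Col3a1. This gave 459 cells (distraction 245, sham 214) out of 9220 kept cells and 10240 deposited ones. The rats were 4 weeks old. In the distraction group a W-shaped spring bent from nickel-titanium wire (0.4 mm) pulled on the suture for 7 days, starting at 20 g, and in the sham group the holes were drilled but no spring was placed. No strain, genotype or sex is given in the sources used here, and neither is the number of animals behind a library. The BD Rhapsody system, which pairs single cells in microwells with barcoded beads, was used, and each group has 1 library. No difference between the libraries therefore has a replicate check, no test was made, and every interval is a 95% interval that covers counting error only.

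Monocytes are blood phagocytes made in the bone marrow that enter tissue after injury and can become macrophages, dendritic cells or osteoclasts. Classical monocytes carry CD14, a co-receptor for bacterial lipopolysaccharide, and are known for secreting chemokines that draw in neutrophils and further monocytes. Vcan codes for versican, a large chondroitin sulfate proteoglycan of the extracellular matrix, and Fn1 for fibronectin, an adhesive matrix glycoprotein. F13a1 codes for the A subunit of coagulation factor XIII, which cross-links fibrin, and Fcnb for a ficolin, a lectin that recognises sugars on microbes.

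The distraction library held 4889 deposited cells with 32078960 UMIs and the sham library 5351 with 29924342. After removal of cells under 500 UMIs or 200 genes or with 25% or more mitochondrial UMIs, 4037 and 5183 cells remained, with median depths of 4161 and 3033 UMIs. The selected cells were deeper, with a median of 13502 UMIs (1321 to 62839) in the distraction library and 12159.5 (937 to 45932) in the sham library, and 4074958 and 3099073 UMIs in all. Their median mitochondrial share was 7.87% and 7.74%. The libraries share 22 cell barcodes, 1 of them among the selected cells. Doublets were not removed and no caller was run.

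The minimum on Vcan and Fn1 was met by 299 distraction and 226 sham cells. The collagen limit then took out 54 distraction and 11 sham cells, of which 52 and 9 held at least 3 of 9 monocyte markers, Vcan and Fn1 among them. The protease limit took out 0 and 1 cells and the C1q limit 0 and 0. Most selected cells lay well inside the rule, with 20 or more UMIs of the pair in 222 and 184 cells. Just inside, at 10 to 12 UMIs, stood 8 and 14 cells with Cd14 at 881 and 1993 CPM and Fcnb at 2271 and 4104 CPM (counts of the summed cells scaled to a total of 1000000 UMIs). Just outside, at 7 to 9 UMIs, stood 12 and 12 cells with Cd14 at 1515 and 794 CPM and Fcnb at 3518 and 746 CPM. The edge thus passes through cells that carry Cd14 and Fcnb on both sides.

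The monocyte label was checked on markers that the selection did not use, and most cells carried Fcnb and Cd14. These markers were chosen with earlier results of these data known. Fcnb was found in 226 of 245 and 202 of 214 cells, with a median of 56 UMIs (0 to 424) and 41 UMIs (0 to 446). Cd14 was found in 234 and 199 cells, with medians of 51 (0 to 287) and 45 UMIs (0 to 187). Under 3 UMIs of both Cd14 and Fcnb were held by 14 distraction and 12 sham cells. F13a1 was the exception among the 5 defining markers: it was found in 43 and 24 cells (17.6% and 11.2%), with a median of 0 in both libraries. After thinning each cell to 2000 UMIs, Fcnb was detected in 88.9% and 93.3% of the selected cells and in 1.7% and 2.7% of B-lineage cells, which should lack it. The same shares for Cd14 were 90.6% and 90.9% against 1.7% and 2.4%. For F13a1 they were 6.97% and 2.87% against 0.0824% and 0.166%. The B-lineage cells had median depths of 3108 and 2770 UMIs before thinning. Other genes of the monocyte list were uneven before thinning. Lyz2 was found in 98.4% and 98.6% of the selected cells and Csf1r in 79.2% and 78.0%. Irf8 was found in 26.5% and 22.4%, Clec4a1 in 20.4% and 9.81%, Cd300a in 16.7% and 16.8%, and Ly6c in 0.816% and 0.467%. Ccr2, a chemokine receptor gene of classical monocytes, was not analysed here.

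Compared with all other kept cells, and as a description since the same cells were selected on their counts, the 20 genes with the highest ratio included Fcnb, Cd14, the S100 genes S100a4, S100a6 and S100a10, and the cathepsin gene Ctsl. They also included Tlr7, a sensor of single-stranded RNA, Ptgs2, the inducible cyclooxygenase, Ereg, an EGF receptor ligand, and Thbs1, a thrombospondin. S100a4 was at 3313 CPM in distraction and 2672 CPM in sham cells, against 198 and 124 CPM in the other cells. Tlr7 was at 222 and 250 CPM against 11.2 and 8.64 CPM, and Ptgs2 at 1696 and 1441 CPM against 147 and 101 CPM. Fcnb stood at 4977 and 5108 CPM against 206 and 183 CPM. The lysozyme gene Lyz2 was at 22456 and 24183 CPM, above neutrophils at 9553 and 9177 CPM.

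The same 20 genes held 3 chemokines, Cxcl2, Cxcl3 and Ccl2. Cxcl2, a ligand of the neutrophil receptor CXCR2, was at 18130 CPM in distraction and 16239 CPM in sham cells, against 1781 and 1192 CPM in all other cells. Cxcl3, a second such ligand, was at 7570 and 9437 CPM against 261 and 292 CPM. Ccl2, the main ligand of CCR2, was at 3187 and 5346 CPM against 339 and 217 CPM. Outside the 20, Ccl3, a ligand of CCR1, was at 17344 and 17079 CPM, and Il1b, which codes for interleukin-1 beta, at 9499 and 7767 CPM. These levels were not confined to the selected cells: C1q macrophages, the 62 cells with 10 or more C1q UMIs, held Cxcl2 at 20935 and 19119 CPM and Ccl3 at 10379 and 12145.5 CPM. Tnf, by contrast, had 3 counts in each library, and its level was not distinguishable from the floor of 3 counts.

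The promoters of 3 inducible genes of these cells are shown because their levels are described below by cell-cycle state, where Cxcl1 and Cxcl2 differed and Il6 did not. Each window runs from 250 bases before to 50 bases after the annotated start, 5′ to 3′ on the gene's strand, from RefSeq with build GRCr8. Capitals mark the matches to the NF-kB consensus, searched on both strands. The windows are chr14:17479272-17479571 for Cxcl1, chr14:17467206-17467505 for Cxcl2 and chr4:5894526-5894825 for Il6, all on the minus strand.
Cxcl1: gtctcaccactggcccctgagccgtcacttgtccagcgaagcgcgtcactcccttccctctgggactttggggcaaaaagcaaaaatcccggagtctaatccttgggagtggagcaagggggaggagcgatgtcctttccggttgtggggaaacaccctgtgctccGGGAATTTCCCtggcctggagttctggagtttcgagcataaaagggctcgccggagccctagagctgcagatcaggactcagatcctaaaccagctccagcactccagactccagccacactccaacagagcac
Cxcl2: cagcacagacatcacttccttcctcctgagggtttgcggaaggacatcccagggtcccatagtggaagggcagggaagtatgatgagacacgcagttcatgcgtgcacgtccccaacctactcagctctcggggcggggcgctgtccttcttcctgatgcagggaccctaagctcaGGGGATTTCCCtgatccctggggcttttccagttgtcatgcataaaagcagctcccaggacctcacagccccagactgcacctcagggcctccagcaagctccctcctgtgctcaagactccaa
Il6: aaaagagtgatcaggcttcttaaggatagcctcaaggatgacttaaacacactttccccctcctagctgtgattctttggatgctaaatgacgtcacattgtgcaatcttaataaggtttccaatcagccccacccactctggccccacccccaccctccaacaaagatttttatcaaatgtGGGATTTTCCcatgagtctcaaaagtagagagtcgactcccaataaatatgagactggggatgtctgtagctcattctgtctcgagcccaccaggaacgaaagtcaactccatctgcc
The Cxcl1 and Cxcl2 windows each hold 2 overlapping matches, the first of which ends 75 and 65 bases before the start, and the Il6 match ends 59 bases before it. The consensus occurs in 2515 of 33469 windows (7.51%) and in 8.16% of the 27457 genes with a window. Of the 27 genes of the chemokine and cytokine list 19 had a window, and 7 of these (36.8%) held a match: Ccl7, Ccl9, Cxcl1, Cxcl2, Cxcl10, Il6 and Tgfb1. The TATA letters TATAAA were in 9 of the 19 (47.4%, beside 9.67% of genes) and the AP-1 letters TGANTCA in 5 (26.3%, beside 8.04%). A share above that of all genes was thus not particular to the NF-kB consensus. A match describes the letters of the window and does not show a bound site. Ccl2, Ccl3, Ccl4 and Cxcl3 are not in the table.

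C1q macrophages, which also held high Cxcl2 and Ccl3, differed from the monocytes in identity genes. Fcnb was at 3.76 and 3.16 CPM in C1q macrophages, and Slpi, a secreted protease inhibitor, at 7.53 and 31.6 CPM against 2388 and 2729 CPM in the monocytes. S100a6 was at 22.6 and 12.6 CPM in C1q macrophages against 2455 and 2071 CPM. In the other direction, Apoe, the lipid carrier apolipoprotein E, was at 12.3 and 12.3 CPM in the monocytes against 3317 and 4862 CPM in C1q macrophages. Vcam1, an adhesion molecule for leukocyte integrins, had 0 and 0.323 CPM against 1206 and 2128 CPM. Cd5l, a macrophage-secreted scavenger protein, was at 0.245 and 0.645 CPM against 1089 and 838 CPM. Cxcl1 was lower in the monocytes, at 3540 and 2564 CPM against 16076.5 and 16302.5 CPM. Against neutrophils, the monocytes had Ctsl at 891 and 790 CPM where neutrophils had 4.82 and 5.48 CPM, and Ngp, a neutrophil granule protein gene, at 51.8 and 57.4 CPM where neutrophils had 19692 and 21170.5 CPM.

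**Figure D1:**
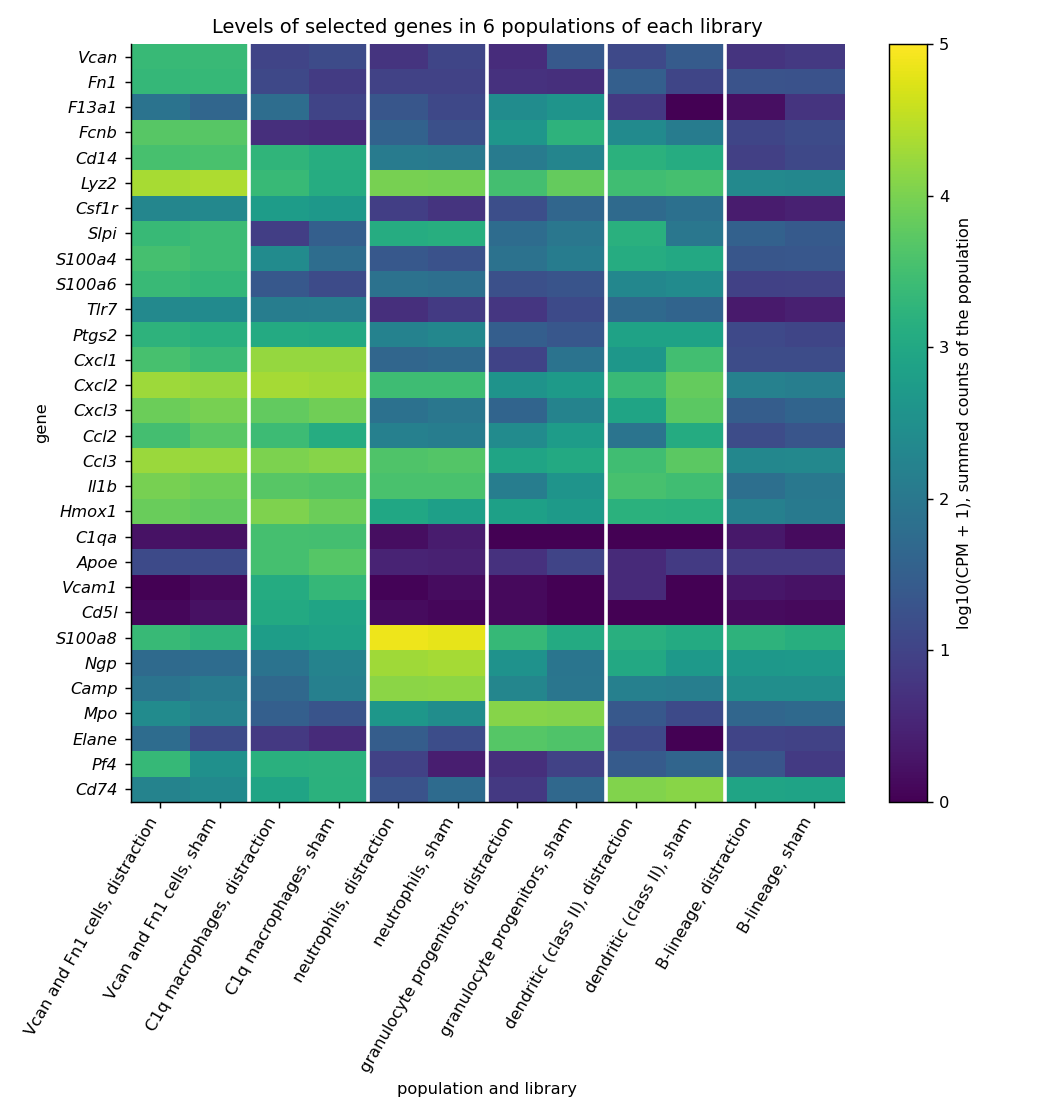
Summed level of 30 genes (log10 of CPM + 1, colour) in the selected cells and 5 other populations of each library. The selected cells share high Cxcl2, Ccl3 and Il1b with C1q macrophages, but not C1qa, Apoe or Vcam1, and hold Fcnb at 4977 and 5108 CPM.

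A few of the selected cells were not monocytes by their markers. In the distraction library 11 cells and in the sham library 4 cells held at least 3 of 6 megakaryocyte markers, the genes of the platelet-forming cells of the marrow. None reached 10 UMIs of Vcan: they held at most 2 and 1 Vcan UMIs and were selected through Fn1. Their Cd14 level was 29.2 and 0 CPM, Fcnb 2.65 and 0 CPM, and Lyz2 170 and 29.6 CPM. Pf4, which codes for platelet factor 4, was at 22855 and 7175 CPM in them, and they held 94.7% and 72.3% of all Pf4 counts of the selected cells. Itga2b, the platelet integrin alpha-IIb, had 99.3% and 97.1% of its counts in them, and Ppbp, a platelet chemokine, 100% and 100%. With medians of 31158 and 26126.5 UMIs they supplied 9.25% and 3.27% of all UMIs of the selected cells. They also held 40.9% of the distraction counts of F13a1.

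**Figure D2:**
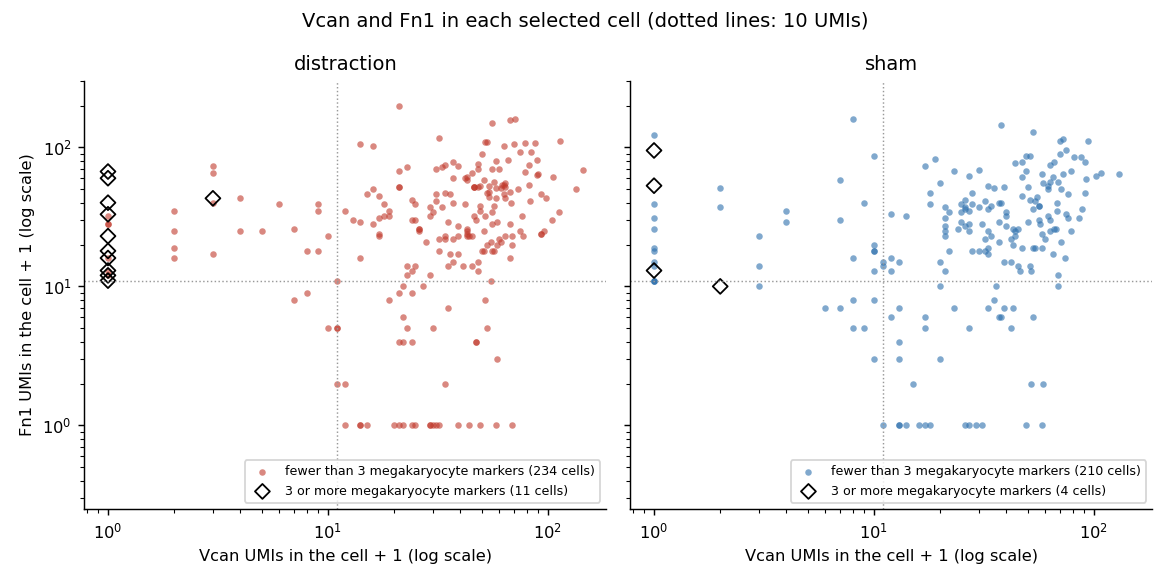
Vcan and Fn1 UMIs (plus 1, log axes) of each selected cell, by library. The 11 distraction and 4 sham cells with megakaryocyte markers (diamonds) lie at 2 or fewer Vcan UMIs, and most other cells hold 10 or more UMIs of both genes.

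Counting every non-myeloid lineage, 21 distraction and 20 sham cells held at least 3 markers of 1 other lineage and are called mixed cells below. The neutrophil markers were left out of that definition after 223 of 245 and 180 of 214 selected cells proved to hold at least 3 of them. The 13 neutrophil markers summed to 4092 and 3168 CPM in the selected cells against 57600 and 29823 CPM in the other kept cells, and Ltf, which codes for lactoferrin, was at 0 in the selected cells. The 9 B-lineage markers in the tables summed to 32.1 and 63.9 CPM, with Pax5 and Vpreb3 at 0. For fibroblasts and osteoblasts the sum was 115 and 152 CPM, for endothelial cells 86.9 and 29.4 CPM, and for megakaryocytes 2523 and 352 CPM, with none of the 6 megakaryocyte markers at 0. Gene results below are given with and without the mixed cells where their removal ended a call.

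Vcan and Fn1 did not always occur together. Both genes reached 10 UMIs in 166 distraction and 139 sham cells (67.8% and 65.0%), Vcan alone in 41 and 36, Fn1 alone in 35 and 30, and only their sum in 3 and 9. The cells with Vcan alone had more of the granulocyte and factor XIII genes: F13a1 was at 157 and 163 CPM in them against 18.7 and 9.31 CPM where both genes reached 10. Mpo, the myeloperoxidase of granulocyte and monocyte precursors, was at 1001 and 627 CPM against 33.0 and 29.5 CPM, within the limit of the selection rule on granule proteases. Fcnb was at 6725 and 6843 CPM against 5023 and 4709.5 CPM. Cxcl2 went the other way, at 13701 and 13382 CPM against 23600 and 20469 CPM. The cells with Fn1 alone, which include all 11 distraction cells and 3 of the sham cells with megakaryocyte markers, had the lower Cd14, at 901 and 1440 CPM against 4323 and 4315 CPM. Fcnb was found in 57.1% and 66.7% of them, against 99.4% and 100% where both genes reached 10. Kit, a gene of the progenitor list, was found in 25.7% and 20% against 0.602% and 0%. The monocyte label is thus less certain for cells with Fn1 alone. These subsets divide the cells by the selection genes themselves, and the values are a description of 1 library each.

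The share of monocytes among kept cells was 6.07% in the distraction library (245 of 4037, exact Clopper-Pearson interval 5.35 to 6.85) and 4.13% for sham (214 of 5183, 3.6 to 4.71). The ratio was 1.47 (1.22 to 1.77), and 1.48 without mixed cells. B-lineage cells were 1448 of the distraction and 3110 of the sham cells. Among kept cells that are not B-lineage, the monocytes made up 9.46% (8.36 to 10.7) and 10.3% (9.05 to 11.7), a ratio of 0.917 (0.760 to 1.11). Among myeloid cells the shares were 15.2% and 18.5%, a ratio of 0.818 (0.678 to 0.987). The direction of the difference thus depended on the denominator, and a change in monocyte number and a change in the cells around them cannot be told apart from shares.

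Within the monocytes, most genes had the same level in both libraries. The call of higher or lower required a CPM ratio of 1.5 or more either way, with its counting interval on 1 side of 1, among genes with at least 50 CPM in 1 library and 30 counts over both. Of 2816 such genes, 64 were higher in distraction cells (2.27% of the genes tested) and 44 lower (1.56%), or 3.84% together. The CPM values of 2710 genes (96.2%) lay within 1.5-fold and 35 genes differed by over 2-fold, with a median log2 ratio of -0.018. The Pearson correlation of log2 CPM across these genes, which are not independent replicates, was 0.97. Without the 41 mixed cells 21 genes were higher, 15 of them among the 64, and 41 were lower, 30 of them among the 44, of 2692 genes tested. Of the 64 higher genes, 15 were found in under 10% of the cells of both libraries.

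**Figure D3:**
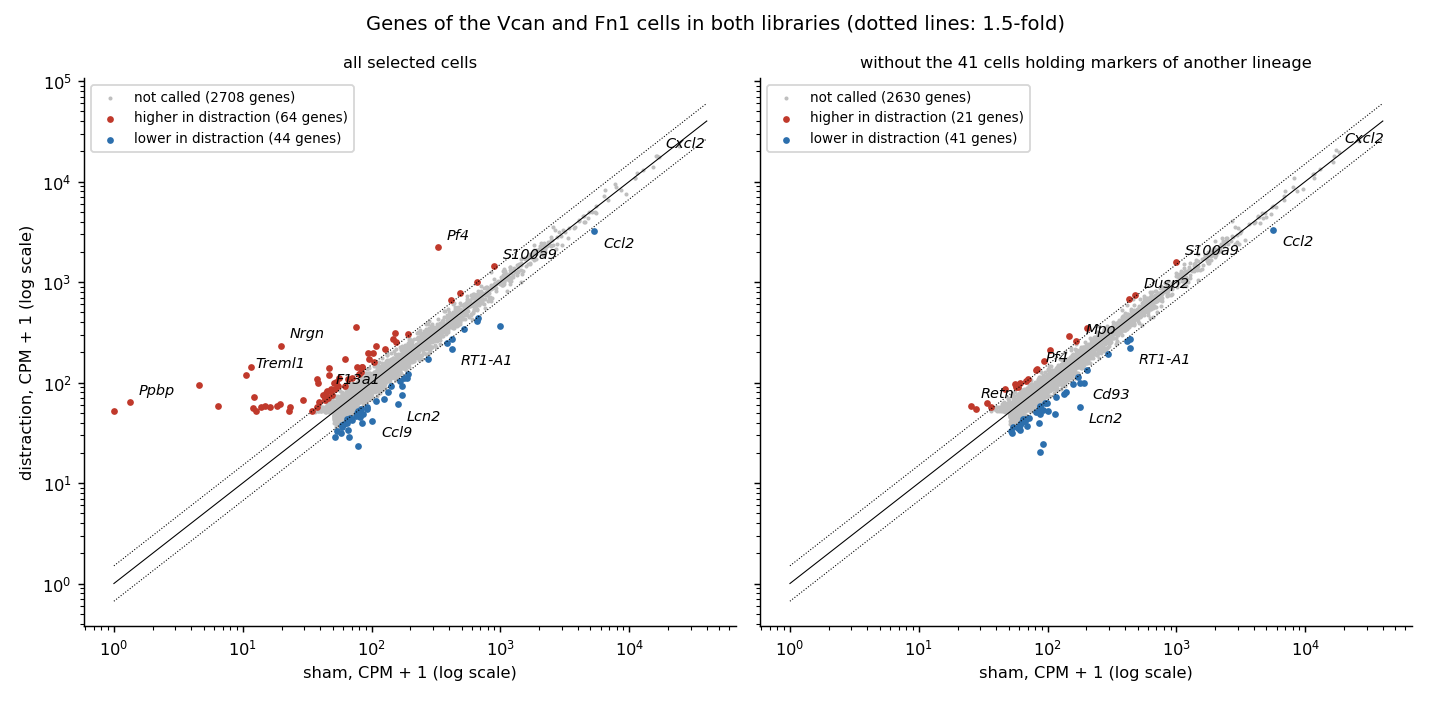
CPM + 1 of each tested gene in sham (x) and distraction cells (y), log axes, for all 459 selected cells and without the 41 mixed cells. The platelet genes Nrgn, Treml1 and Ppbp lie far above the diagonal on the left panel and are absent from the right one, while Ccl2 and RT1-A1 stay below it on both.

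The 5 defining markers were close to equal, with F13a1 as the exception. Vcan was at 2287 and 2450 CPM (35 UMIs in the median distraction cell, 0 to 143, and 32 in the median sham cell, 0 to 129). Fn1 was at 2135 and 2236 CPM (medians 28 and 25 UMIs). Being the selection genes, both are given as a description. Fcnb differed by a ratio of 0.974 (0.954 to 0.995) and Cd14 by 0.932 (0.909 to 0.955). F13a1 was higher in distraction cells, at 80.5 against 43.9 CPM, a ratio of 1.83 (1.5 to 2.26), a call kept in 6 of 14 alternatives. Without mixed cells it was at 48.6 and 43.5 CPM, under the minimum of 50 CPM. Csf1r, the receptor of the monocyte growth factor CSF-1, was at 199 and 217 CPM.

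Of the 12 genes with the highest ratio under the naming rule, 3 were also called without mixed cells. Pf4 was at 2230 against 325 CPM in all selected cells, and at 134 against 81.5 CPM without mixed cells (1.65, 1.40 to 1.94). In B-lineage cells, which should lack it, Pf4 was at 20.0 and 5.97 CPM (3.36, 2.57 to 4.41), and the part of free platelet RNA in the ratio was not tested. Tuba1a, an alpha-tubulin gene, was at 98.7 against 37.4 CPM, and at 61.0 against 32.9 CPM without them (1.86, 1.44 to 2.40). Retn, which codes for the hormone resistin, was at 51.5 against 21.9 CPM and at 57.9 against 24.5 CPM without them (2.36, 1.78 to 3.16). Retn was at 450 and 345 CPM in neutrophils and at 10.8 and 5.49 CPM in B-lineage cells. It kept its call in 9 of 14 alternatives and was not called without cells at 1% or more of UMIs from 6 neutrophil genes. The part of free neutrophil RNA in the Retn ratio was not tested. The other 9 lost their call without the mixed cells: Tuba4a, Serpinb6a and Mt2A were no longer past the ratio, and Apold1, Cd9, Gsn, Ptms, Parvb and Bin2 fell under 50 CPM. Cd9, a tetraspanin, moved from a ratio of 3.02 to 1.24, Gsn, which codes for the actin-severing protein gelsolin, from 2.90 to 1.40, and Parvb turned to a ratio of 0.967.

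The lower genes depended less on mixed cells: of the 12 named, 11 were also called without them, all but Fbxo5, which fell under 50 CPM. Ccl2 was the most abundant of them. A Ccl2 UMI was present in 203 of 245 cells under distraction and in 194 of 214 after sham surgery, with medians of 16 UMIs (0 to 670) and 42 UMIs (0 to 504), and the ranges overlap. At 3187 against 5346 CPM it was 1.68-fold lower (1.64 to 1.72) and stayed called in 14 of 14 alternatives. After thinning to 2000 UMIs, Ccl2 was detected in 68.0% of distraction and 80.9% of sham monocytes, against 2.64% and 2.82% of B-lineage cells. In B-lineage cells the CPM ratio of Ccl2 was also below 1, at 0.691 (0.550 to 0.863), beside 0.596 in the monocytes. The part of free RNA in the Ccl2 ratio was not tested. RT1-A1, a class I major histocompatibility gene, was at 217 against 418 CPM, 1.93-fold lower (1.77 to 2.10), in 14 of 14 alternatives. It was below the sham level in all 5 other populations too, at 549 against 689 CPM in C1q macrophages, 154 against 238 in neutrophils and 219 against 379 in B-lineage cells. RT1 genes have near-identical copies between which reads can be divided, so the RT1-A1 values are uncertain.

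The other named lower genes act in signalling, adhesion and metabolism. Ralgds, an exchange factor for Ral GTPases, was at 91.5 against 171 CPM (1.86-fold lower, 1.63 to 2.13), and Rassf5, an effector of Ras and Rap1 in leukocyte adhesion, at 32.9 against 64.2 CPM (1.95-fold, 1.56 to 2.45). Both kept the call in 14 of 14 alternatives. In B-lineage cells the ratio was 0.771 (0.649 to 0.913) for Ralgds and 1.02 (0.936 to 1.11) for Rassf5. Cd93, a surface lectin-like receptor of myeloid cells and endothelium, was at 110 against 188 CPM (1.71-fold, 1.51 to 1.94). Gbp5, an interferon-induced guanylate-binding protein gene, was at 79.0 against 133 CPM (1.68-fold, 1.45 to 1.95). Malt1, a signalling protease upstream of NF-kB, Sts, the steroid sulfatase, Rpia, an enzyme of the pentose phosphate pathway, and Rnd3, an atypical small GTPase, were 1.69-fold to 1.87-fold lower. Sts was lower by about as much in B-lineage cells, at 19.4 against 33.2 CPM (ratio 0.584, 0.484 to 0.701, beside 0.545 in the monocytes). Col1a1 was at 38.8 against 83.6 CPM, but B-lineage cells held it at 53.5 against 122 CPM and neutrophils at 50.8 against 123 CPM. The Col1a1 level in the monocytes was thus below that of cells that should lack it, and Col1a1 is also a gene of the selection limit on collagens.

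Chemokines and cytokines included 4 lower genes and 0 higher among 17 tested, with a median log2 ratio of -0.16, beside 1.56% lower among all genes. They were Ccl2, Ccl7, Ccl9 and Il1rn. Ccl7, a neighbour of Ccl2 that also acts on CCR2, was at 272 against 420 CPM (1.54-fold lower, 1.42 to 1.67), a call kept in 10 of 14 alternatives. Il1rn, which codes for the interleukin-1 receptor antagonist, was at 441 against 672 CPM (1.52-fold, 1.43 to 1.62), and it was not called without mixed cells. It kept its call in 5 of 14 alternatives. Of the sham counts of Ccl9, a ligand of CCR1, 50.5% came from 1 cell. The neutrophil-attracting chemokines were not called: Cxcl1 was at 3540 and 2564 CPM (ratio 1.38, 1.34 to 1.42), Cxcl2 at 18130 and 16239 CPM and Cxcl3 at 7570 and 9437 CPM. Il1b was at 9499 and 7767 CPM, Il6 at 295 and 282 CPM and Osm, which codes for oncostatin M, at 168 and 205 CPM.

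Several lists of monocyte function had 0 called genes, which in lists this short is near the 3.84% called among all genes and shows nothing particular to them. This held for 19 lysosomal genes, among them Ctsb at 2140 and 2704 CPM and Psap at 5016 and 5414 CPM, and for 13 pattern recognition genes, among them Tlr2 at 502 and 500 CPM. It held for 13 trafficking and adhesion receptors, among them Cxcr4, the receptor of the marrow chemokine CXCL12, at 472 and 590 CPM. The same was true of the 5 tested genes of the NADPH oxidase, 5 non-classical monocyte genes, 8 complement genes and 5 class II and dendritic genes. Of 6 angiogenic and growth factor genes none was called, with Vegfa, the main endothelial growth factor gene, at 220 and 192 CPM and Ereg at 122 and 146 CPM. Of 5 tested genes of the osteoclast lineage list, Csf1r, Fos, Spi1, Mitf and Tyrobp, none was called. The osteoclast genes Acp5, with 32 and 26 counts, Ocstamp, with 0 and 0, and Ctsk stayed under the minimum. The list therefore gives no result on them. Ctsk, which codes for the bone-resorbing protease cathepsin K, had 20 against 134 counts (4.91 and 43.2 CPM, ratio 0.114, 0.0672 to 0.182), with 91.0% of the sham counts in 1 cell. Cx3cr1, the fractalkine receptor of non-classical monocytes, had 2 and 3 counts.

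Immediate early genes, which respond within minutes to stimulation, were 3 higher and 0 lower of 19 (median 0.098), beside 2.27% higher and 1.56% lower among all genes. Dusp2, a phosphatase of MAP kinases, was at 774 against 481 CPM (1.61, 1.51 to 1.71), Ier3, a stress-response gene, at 668 against 416 CPM (1.61, 1.5 to 1.72), and Egr1, a zinc-finger transcription factor, at 195 against 101 CPM (1.93, 1.70 to 2.21). Dusp2, Ier3 and Egr1 were called without mixed cells too, where Fosb, at 56.7 against 86.2 CPM, became lower, and 31.2% of the distraction counts of Egr1 came from 1 cell. Of 14 alternatives, Dusp2 kept its call in 13, Ier3 in 12 and Egr1 in 9. Fos, Jun, Junb and Nfkbia were not called, with Nfkbia at 4147 and 4055 CPM. Abca1, a cholesterol exporter, was higher at 143 against 83.9 CPM (1.71, 1.47 to 1.98) and kept its call in 14 of 14 alternatives. Gpnmb, a glycoprotein of lipid-loaded macrophages, was 1.59-fold lower (1.49 to 1.70) and not called without them. Of 14 genes of glycolysis and hypoxia 2 were higher, the glucose transporter gene Slc2a3 and the lactate dehydrogenase gene Ldha, and neither was called without mixed cells.

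Transcription factors, matrix genes and receptors held few called genes. Among 15 myeloid transcription factors Egr1 and Fli1 were higher (median -0.065), while Spi1, the master regulator PU.1 of myeloid cells, was at 294 and 296 CPM and Cebpb at 1209 and 1483 CPM. Fli1 was at 107 against 64.5 CPM, and fell under 50 CPM without mixed cells. Of 16 coagulation and matrix genes F13a1 was higher and 0 were lower (median 0.063), with Thbd, which codes for the anticoagulant receptor thrombomodulin, at 539 and 389 CPM (1.38, 1.29 to 1.49) and Thbs1 at 114 and 143 CPM. Cd93 was the lower gene among 10 Fc and scavenger receptors (median -0.17), and Gbp5 the lower gene among 6 interferon-induced genes (median -0.20). Of 10 heat shock genes Dnajb1 was higher, with 62.9% of its distraction counts in 1 cell. Without mixed cells Dnajb1 was not called (ratio 0.888), and the list had 0 higher genes and 2 lower, Hsph1 and Bag3.

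**Figure D4:**
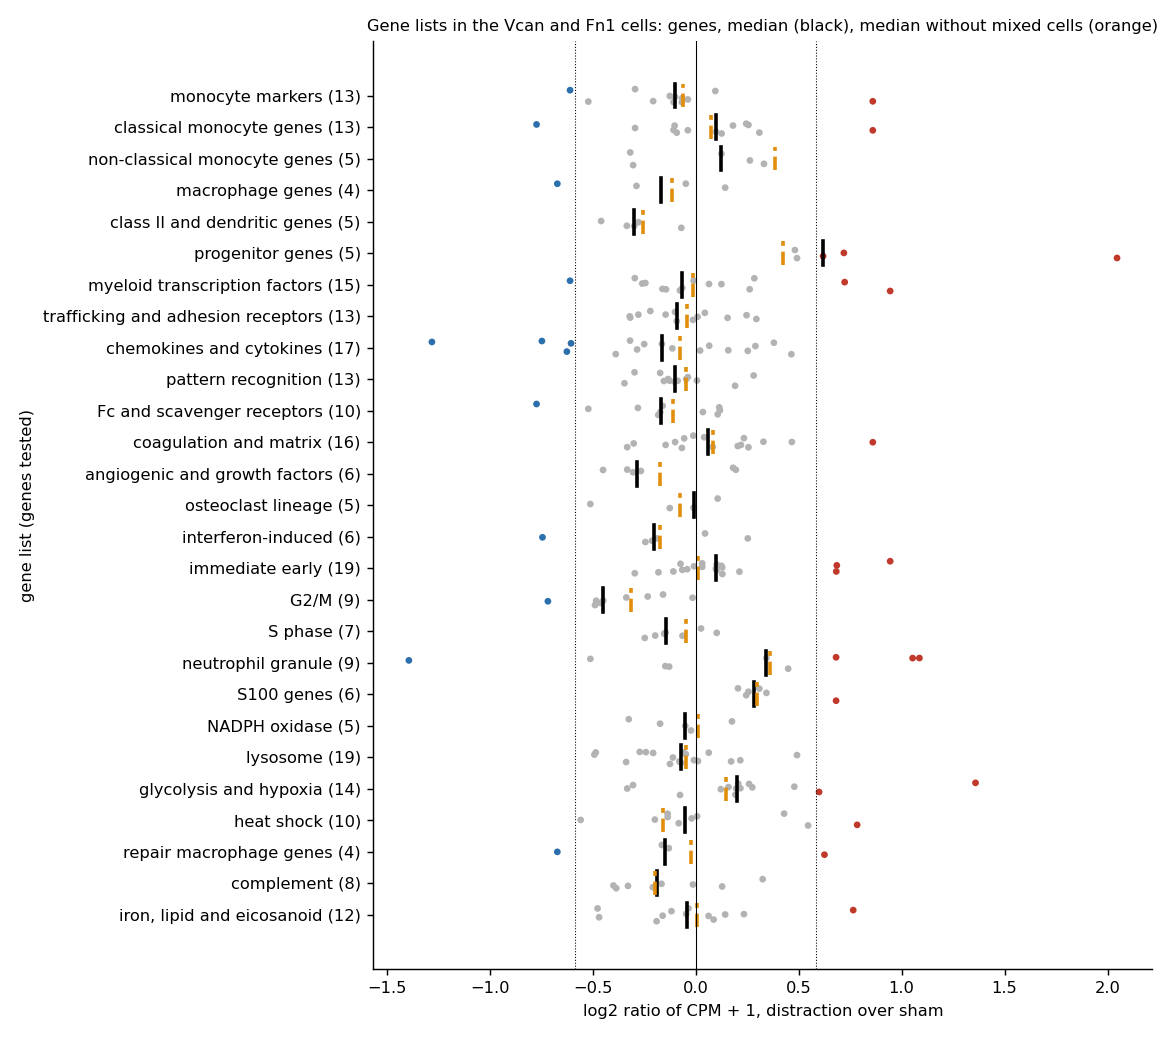
Log2 ratio of CPM + 1, distraction over sham, of each tested gene (points) by list, with the median of all cells (black) and without mixed cells (orange); dotted lines mark 1.5-fold and red and blue points are called genes. The chemokine list has 4 lower genes, and the progenitor list 3 higher ones.

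Some granule genes were higher in the distraction monocytes, and cells that should lack them differed in the same direction. Of 9 neutrophil granule genes 3 were higher and 1 lower (median 0.34), beside 2.27% and 1.56% of all genes, and without mixed cells Camp was lower as well. S100a9, a calprotectin subunit, was at 1434 against 893 CPM (1.61, 1.53 to 1.68), the defensin genes RatNP-3b at 312 against 150 CPM (2.08, 1.87 to 2.32) and Defa5 at 228 against 107 CPM (2.13, 1.88 to 2.43). In B-lineage cells S100a9 was at 1473 and 1226 CPM, RatNP-3b at 1170 and 637 CPM and Defa5 at 1033 and 485 CPM, each above the level in the monocytes. After thinning, S100a9 was found in 59.0% and 48.3% of the monocytes and in 40.2% and 34.2% of B-lineage cells. S100a9 kept its call in 10 of 14 alternatives and was not called without cells at 1% or more of UMIs from 6 neutrophil genes. Defa5 kept its call in 13 and RatNP-3b in 14 of the 14 alternatives. The part of free neutrophil RNA in these ratios was not tested. Defensin genes have near-identical copies, so their single values are uncertain. Lcn2, which codes for lipocalin-2, was at 59.6 against 158 CPM (2.65-fold lower), and a single sham cell held 71.4% of the sham counts.

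Genes of the granulocyte and monocyte precursors were 3 higher and 0 lower of 5 (median 0.62), beside 2.27% higher among all genes. Mpo was at 255 against 154 CPM (1.65, 1.48 to 1.84) and found in 64 of 245 and 50 of 214 cells. Elane, which codes for neutrophil elastase, was at 56.4 against 12.9 CPM, with 27.0% of the distraction counts and 30% of the sham counts in 1 cell each. Nkg7, a granule membrane gene, was at 121 against 78.7 CPM. Mpo, Elane and Ctsg are also genes of the selection limit on proteases, so cells with more of them could not enter. Elane fell under 50 CPM without mixed cells. Without mixed cells Mpo alone of the list was called. Without cells holding 2 or more G2/M genes the direction of Mpo turned, to a log2 ratio of -0.84, and the list median to -0.22.

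A large part of the monocytes carried transcripts of dividing cells. At least 2 of the 14 measured G2/M genes were detected in 42.0% of distraction cells (103 of 245, 35.8 to 48.5) and 44.4% of sham cells (95 of 214, 37.6 to 51.3). At an equal depth of 2000 UMIs, which left out 1 and 5 shallower cells, the shares were 19.7% (48 of 244, 14.9 to 25.2) and 30.1% (63 of 209, 24.0 to 36.9). The part of free RNA in these shares was not tested. On the same footing neutrophils stood at 15.0% and 14.7%, B-lineage cells at 39.4% and 35.7% and granulocyte progenitors at 34.1% and 42.9%. Of 9 tested G2/M genes 1 was lower in distraction cells, the spindle gene Tpx2, with a list median of -0.45. Mki67, the proliferation marker, was at 133 and 183 CPM and Top2a, which codes for topoisomerase II alpha, at 203 and 284 CPM, and neither was called.

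The cells were then divided by the number of G2/M genes detected, with limits chosen after the values were seen. A number of 0 or 1 was found in 142 distraction and 119 sham cells, 2 to 5 in 32 and 30 cells, and 6 or more in 71 and 65 cells. Median depth went with the classes, from 10559.5 and 9467 UMIs in the first to 23011 and 21935 in the last, so equal-depth values are given as well. CPM values are shares of the UMIs and thinning keeps these shares, so neither gives the number of transcripts per cell. S-phase genes were not used for the division, and 6 of 7 were at least 2-fold higher in the last class than in the first in both libraries. Against 82 of 2816 genes at least 2-fold lower and 205 at least 2-fold higher in both libraries, the chemokine and cytokine list had 8 lower and 1 higher of 17, the higher being Cxcl10.

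Inflammatory transcripts made up a smaller share of the UMIs in the cells with many G2/M genes, in both libraries. Cxcl2 went from 29065 to 9945 CPM in distraction cells (log2 ratio -1.55) and from 24912 to 9797 CPM in sham cells (-1.35), with the middle class at 13674 and 15902 CPM. Cxcl3 had log2 ratios of -2.04 and -1.73, Cxcl1 of -1.88 and -1.65 and Ccl3 of -1.27 and -1.05. Ptgs2, which makes prostaglandin precursors, went from 3340 to 508 CPM (-2.69) and from 2433 to 765 CPM (-1.66). Il1rn had log2 ratios of -1.91 and -1.60, and Ccl6, a CCR1 ligand, of -3.51 and -3.13. Without mixed cells the ratios were -1.51 and -1.28 for Cxcl2 and -2.69 and -1.66 for Ptgs2. At equal depth, between cells with 0 and with 2 or more G2/M genes (161 and 48 distraction cells, 120 and 63 sham cells), Cxcl2 was at 28671 and 8729 CPM in distraction cells and at 26058 and 11413 CPM in sham cells. Ptgs2 was at 3174 and 375 CPM and at 2212 and 849 CPM on that footing.

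The secreted factors did not all differ by class to the same degree. Il6, whose promoter window is shown above with an NF-kB match like those of Cxcl1 and Cxcl2, had log2 ratios of -0.0018 and 0.27. Ccl2 had -0.14 and -0.52, with 2979 and 4449 CPM in the cells with 6 or more G2/M genes against 3278 and 6393 CPM in those with 0 or 1. At equal depth Ccl2 was lower in cells with 2 or more G2/M genes than in cells with 0. It was at 1958 against 3224 CPM in distraction cells and at 4452 against 5858 CPM in sham cells. The difference in Ccl2 between the libraries was thus present in the cells with few and with many G2/M genes. Fcgr1a, the high-affinity IgG receptor, had log2 ratios of -2.05 and -2.32, and Itgb2, the beta-2 integrin subunit of leukocytes, of -1.58 and -1.44.

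The identity genes divided. Vcan had log2 ratios of -1.13 and -1.37 between the last and the first class, whereas Fcnb was higher with many G2/M genes, at 6528 against 3528 CPM (0.89) in distraction cells and 5966 against 3812 CPM (0.65) in sham cells. Vcan is a selection gene with a fixed minimum of UMIs, so deeper cells could enter at a lower CPM, and the last class was deeper. The Vcan ratios are therefore a description, and the part of the selection in them was not tested. Lyz2 differed by 0.23 and 0.091. Cd14 had -0.42 and -0.36. Mpo was at 439 against 30.9 CPM in distraction cells (3.45) and 238 against 56.0 CPM in sham cells (1.91). Over single cells thinned to 2000 UMIs, the summed level of F13a1, Fcnb and Cd14 was most like that of Psap, which codes for prosaposin (Spearman's rank correlation 0.42 over 244 distraction cells and 0.42 over 209 sham cells), and Lyz2 (0.45 and 0.40). The cells share their library and depth, and the correlations are a description.

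**Figure D5:**
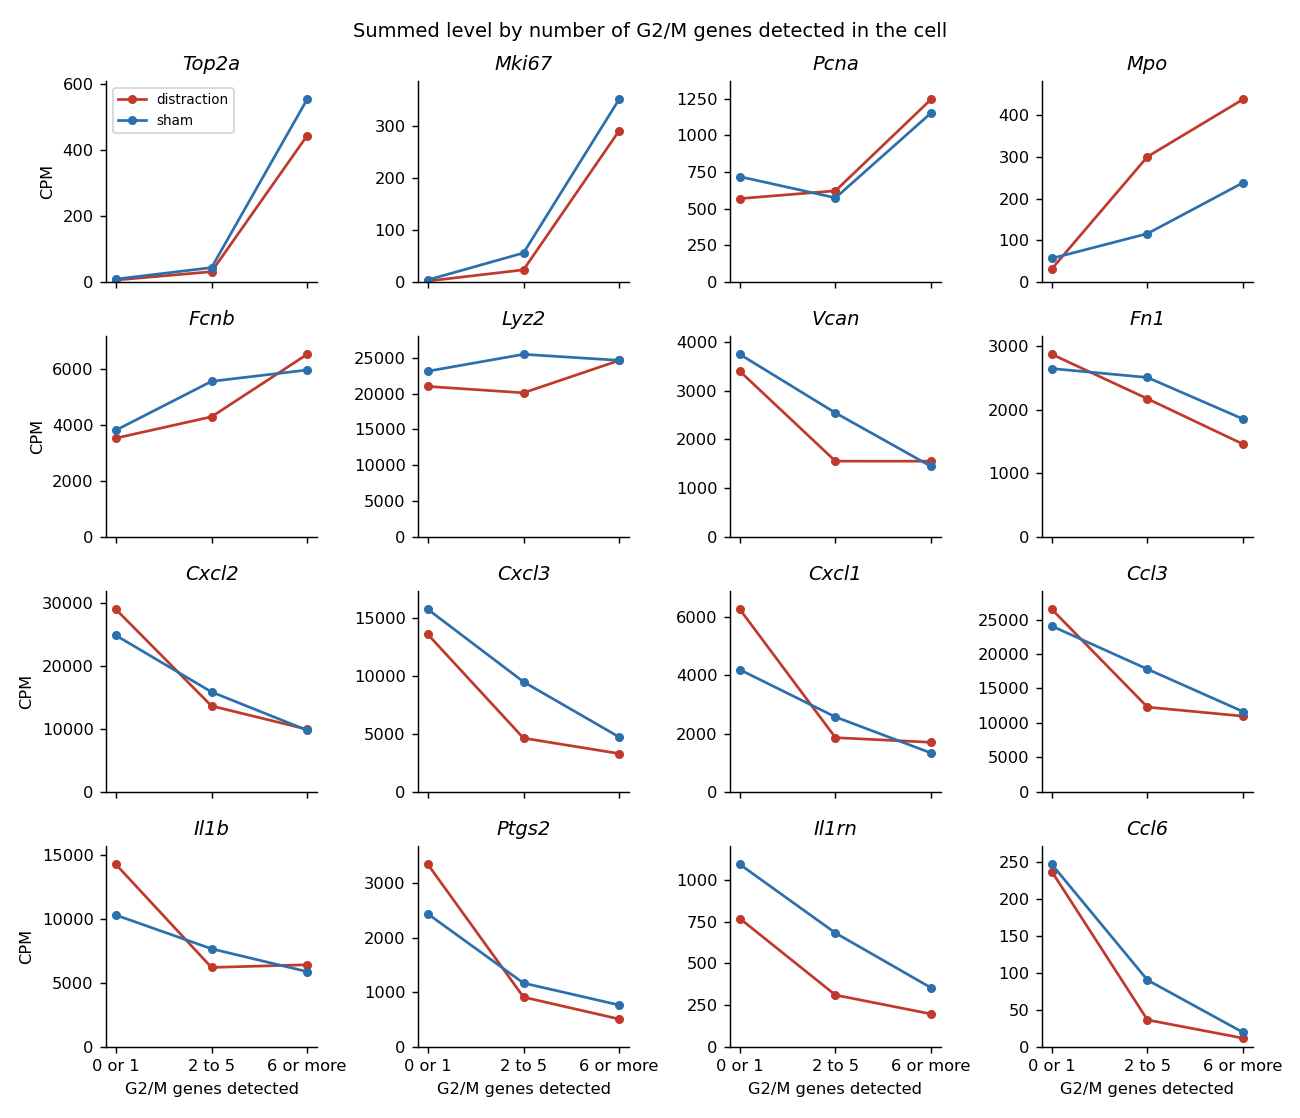
CPM of 16 genes in the selected cells with 0 or 1, 2 to 5 and 6 or more G2/M genes detected, for the distraction (red) and sham (blue) library. Top2a and Mpo are higher and Cxcl2, Ptgs2 and Ccl6 lower with more G2/M genes in both libraries, and Lyz2 is nearly level.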

How the data were processed

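Both deposited tables give unscaled UMI counts for each gene and cell. Per the file headers, the authors ran the BD WTA Rhapsody Analysis Pipeline, version 1.5.1. Rnor_6.0 and Seurat 3.6 are named in the submitters' processing notes, which assign them no role. The tables list 20560 and 20412 genes, 18818 in both; genes absent from either table entered there with 0 counts. Python 3.11.15 with numpy 2.4.6, scipy 1.17.1, pandas 2.3.3 and matplotlib 3.10.9 summed the counts of the selected cells per library, scaled them to CPM and formed ratios with 95% intervals by exact conditional binomial limits; log2 ratios use a pseudocount of 1 CPM. The calls were checked on simulated Poisson counts, which hold no spread between cells or animals, so the check does not cover such spread. In the measured data, 21 of the 108 called genes had 1 cell with over 25% of the counts of the library where they were higher. The members and lists were chosen with earlier results of these data known.

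The selection rule, the markers of other lineages and the alternatives are stated beside the results. Genes were named if they are defining markers, if a gene list holds them at 50 CPM or more, or if they were among the 12 highest or 12 lowest called genes found in at least 10% of the cells of the library where they are higher and at no less than 10% of the level of the highest population. Mitochondrial, ribosomal protein, haemoglobin and immunoglobulin genes were left out of the latter. The 20 genes highest against all other cells and the 8 highest and 8 lowest against C1q macrophages were named as a description. Any further gene was picked with its values in view, as were the mixed-cell definition and the G2/M classes. Thinning drew 2000 UMIs per cell with a fixed seed. Other populations were defined by UMIs: C1q macrophages by 10 or more C1q UMIs, neutrophils by 2% or more S100a8 and S100a9, granulocyte progenitors by 1% or more granule proteases. Promoter windows are from RefSeq GRCr8 and carry no coordinate of the counts.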

Additional observations from a re-analysis of the deposited data

How the results depend on the processing

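The share of monocytes was tried under 10 alternatives: the ratio lay between 1.27 and 1.55 in 9 of them and was 0.917 with B-lineage cells left out of the denominator. Gene results were tried under 14 alternatives, 3 of which were chosen after seeing the data. The 64 higher genes became 375 and the 44 lower genes 354 with no minimum on CPM, and 102 and 103 without cycling cells (2 or more G2/M genes). Higher genes were 21 without mixed cells, 42 without the highest cell of each gene, 19 without cells under 3 UMIs of both Cd14 and Fcnb, and 38 in cells with 10 or more UMIs of both Vcan and Fn1, where lower genes were 70. Thinned to 2000 UMIs, lower genes were 122. Fewer cells enter the settings that leave cells out, more genes enter without the minimum, and other causes were not tested.

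Of 377 list medians under these alternatives, 369 kept their direction and their side of 1.5-fold, or changed sign within it. The progenitor list, at 0.62, was at 0.57 with each cell weighted equally, 0.56 with no minimum on CPM, 0.42 without mixed cells, 0.55 thinned, 0.56 under 10% mitochondrial UMIs and 0.16 in cells with both Vcan and Fn1 at 10, and it turned to -0.22 without cycling cells. The G2/M list was at -0.60 when thinned. The cycling share was 19.7% and 30.1% when thinned, and 36.4% in the sham library (36.7% in the distraction library) with 3 or more G2/M genes.

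Of 714 values of single genes, 549 kept their call, 148 were no longer called and 17 turned. Without cycling cells Elane was at -0.86, Mpo at -0.84, Nkg7 at -0.38 and Dnajb1 at -0.27 (log2). Without mixed cells Parvb was at -0.045 and Dnajb1 at -0.17. Without the highest cell Dnajb1 was at -0.33 and Lcn2 at 0.21. With both Vcan and Fn1 at 10, Apold1 was at -0.046, Nkg7 at -0.15 and Ccl9 at 0.076. With Vcan and Fn1 together at 20 or more, Ccl9 was at 0.45 and Dnajb1 at -0.49, and at 5 or more Tuba4a was at -0.072. With each cell weighted equally Dnajb1 was at -0.11, and without cells low in Cd14 and Fcnb at -0.55. Without cells at 1% or more of UMIs from 6 neutrophil genes Lcn2 was at 0.20. Of the 28 named higher genes 3 and of the 19 named lower genes 6 kept their call in every alternative run. The 3 higher genes were Pf4, RatNP-3b and Abca1. In B-lineage cells, which should lack Pf4, its ratio was 3.36 (2.57 to 4.41). B-lineage cells also held more RatNP-3b than the monocytes. Col1a1 is among the 6 lower genes, and B-lineage cells held more of it than the monocytes.

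The main limit is 1 library per group: counting intervals do not include differences between animals or dissections. No paired analysis was possible because each group has 1 library. Undetected doublets remain, the selection needs a fixed number of UMIs and so favours deep cells, and genes under 50 CPM were not called.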
